A study of Mus musculus with 24 samples.

Results

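Cortex of Trem2 knockout mice was compared with cortex of mice that were wild type at Trem2, with the 5xFAD transgenes in every animal of both groups. Libraries were taken by the genotype and tissue written in their sample names, which gave 6 Trem2 knockout libraries (Trem2KO) and 6 wild-type libraries (WT), 12 of the 24 in the series. All mice were 7.5 months old, and each genotype held 3 males and 3 females, named here by sex and number (M1, F3). 5xFAD is a set of human transgenes for amyloid precursor protein and presenilin with familial Alzheimer mutations, driven in neurons by the Thy1 promoter, and mice that carry it form amyloid plaques. Mice without 5xFAD were not analysed here, so each difference is one between 2 genotypes that both had the transgenes. The labels do not say which part of Trem2 was removed, nor whether the mice of a group were littermates. The 6 Plcg2 knockout libraries (Plcg2KO, 5xFAD, the same age, 4 males and 2 females) are compared with Trem2KO at the close. They and the 6 libraries of Plcg2 heterozygous knockouts (Plcg2HET, 5xFAD, the same age) also entered the fit. All 24 libraries thus shared its filter, scaling, estimate of spread and sex term.

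TREM2 is a receptor for lipids, lipoproteins and other ligands that, in the brain, is made by microglia, the resident macrophages. It pairs with the adaptor TYROBP, also known as DAP12, whose ITAM motif recruits the kinase SYK and, further on, PLCG2 and other enzymes. Around amyloid plaques, microglia take on a disease-associated (DAM) programme that has been described in 2 stages, an early stage reached without TREM2 and a later stage that needs it. Rare coding variants of human TREM2 raise the risk of Alzheimer's disease.

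Total counts were 43.9 to 71.3 M (M, 1e+06 counts) per library in WT and 54.8 to 83.0 M in Trem2KO. The sex-linked genes Xist and Ddx3y matched the label in 6 of 6 libraries of each genotype. The cortical gene Slc17a7 was present in every WT library at 1436 to 1986 CPM (counts scaled to a library total of 1e+06), and so were genes usual for striatum, such as Drd1 at 40.3 to 63.0 CPM. The choroid plexus gene Ttr reached at most 1.08 CPM in WT. Rn45s, a ribosomal RNA precursor, took 1.31 to 2.69% of counts in 5 WT libraries, 9.59% in WT F1 and 0.334 to 3.50% in Trem2KO. Among the other libraries of the fit, it took 5.29% in Plcg2HET F1 and 29.0% in Plcg2HET F3. The rank correlation of a library's deviations with GC content across genes was negative in 5 of 6 WT libraries and positive in 5 of 6 Trem2KO libraries, and the fit over both sexes was therefore repeated with per-gene offsets for GC content and exon length.

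Trem2 itself, the targeted gene (mm10, 1146 exon bases on chromosome 17, 48346401 to 48352276, plus strand), was measured at 46.5 to 119 CPM (median 80.9) in the WT libraries and 4.59 to 7.45 CPM (median 5.97) in the Trem2KO libraries. All 6 Trem2KO libraries were far under all 6 WT libraries, as the plot of levels per library shows, and the mean in Trem2KO was 7.29% of that in WT, a log2 change (the log2 of the fold change, Trem2KO over WT) of -3.70 ± 0.18 (SE, adjusted p = 1.13e-13). A two-sided exact permutation test of 6 against 6 libraries gave p = 0.00216, the smallest p that this design allows. Counts were summed over all exons, so the remaining reads cannot be placed within the gene.

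**Figure D1:**
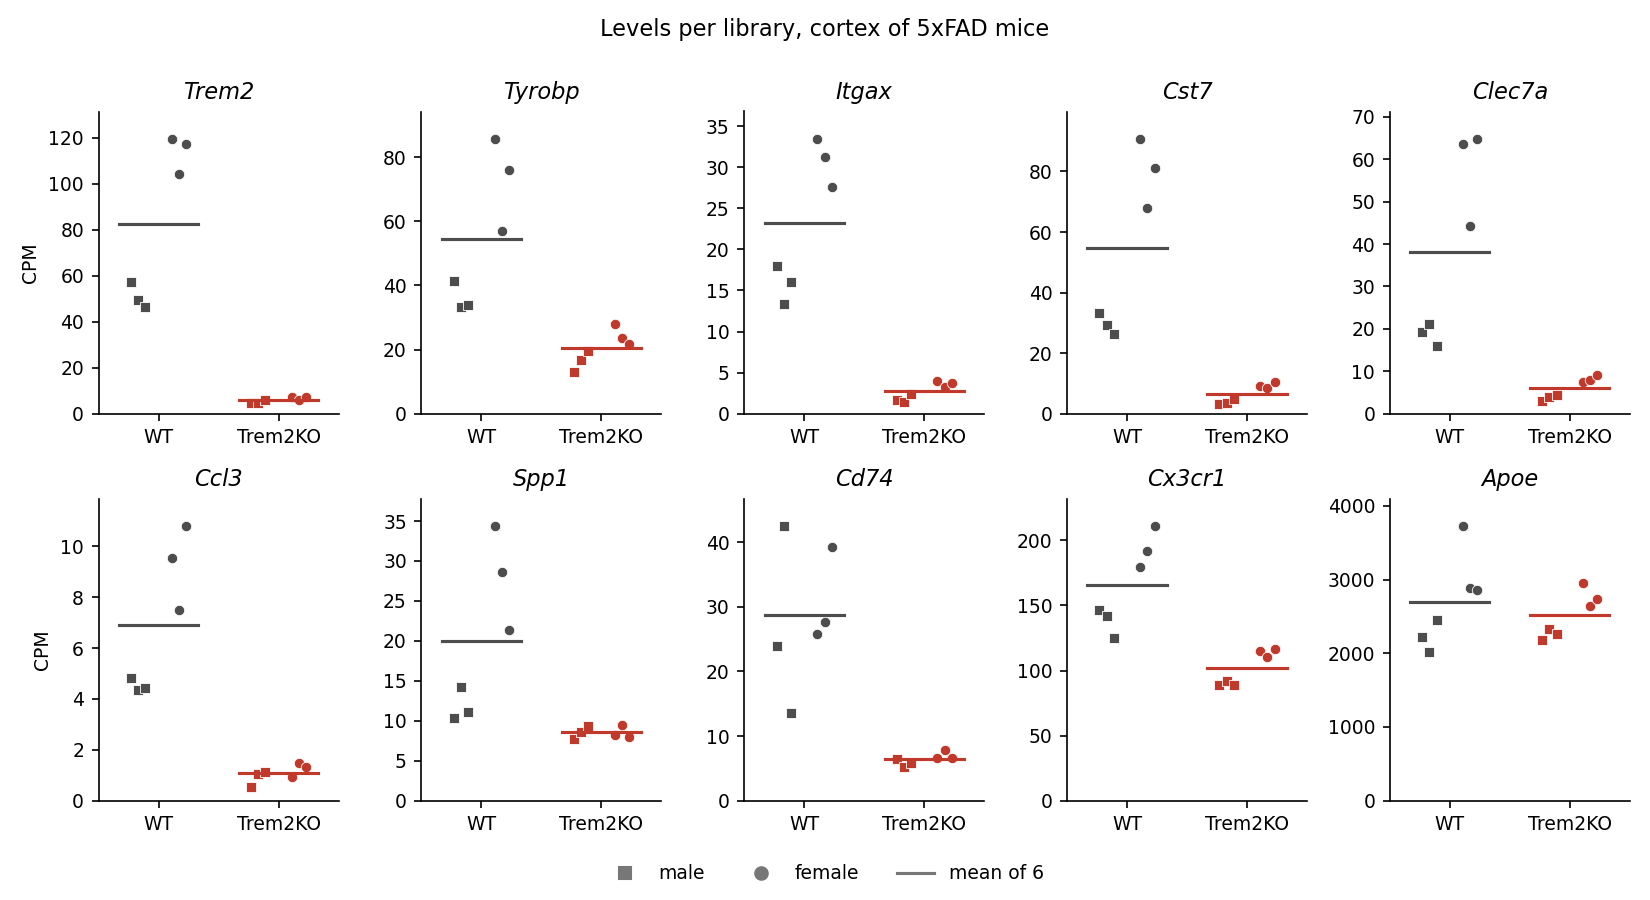
Level of 10 genes in each of the 12 libraries, in TMM-scaled CPM on linear axes that start at 0. Squares are males, circles are females and the line is the mean of 6 libraries. Trem2, Tyrobp, Itgax, Cst7, Clec7a, Ccl3, Spp1, Cd74 and Cx3cr1 show no overlap between WT and Trem2KO, and Apoe overlaps.

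Of 16316 tested genes, 2565 were called different between Trem2KO and WT (15.7%), where called means an adjusted p under 0.05 in edgeR's quasi-likelihood test. Of these, 1331 were lower in Trem2KO (8.16% of tested genes) and 1234 higher (7.56%), and the median log2 change over all tested genes was -0.02. The larger changes were mostly decreases: 208 called genes were lower by over 2-fold and 30 were higher by over 2-fold, a count that was 19 without Trem2KO M1 and 53 without WT F2. The fit estimated the spread from all 24 libraries of the series. With the 12 libraries alone it called 4780 genes, and without WT F1 it called 1662. The count of higher genes was 764 without WT F1 and 804 without WT F3. The labels give each library an animal code of its own and name no litter, batch or day.

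The genes of the receptor complex and its signalling chain fell in part. Of 29 tested genes for the TREM2 complex and ITAM signalling, 17 were lower and 0 higher, with a median log2 change of -0.56. In 6 of them all 6 Trem2KO libraries lay under all 6 WT libraries, against 5.23% of all tested genes. Tyrobp, the adaptor that carries the TREM2 signal, was at 33.3 to 85.7 CPM (median 49.2) in the WT libraries and 13.1 to 28.1 CPM (median 20.6) in the Trem2KO libraries. The groups did not overlap, and Tyrobp was 2.57-fold lower, a log2 change of -1.36 ± 0.15 (SE, adjusted p = 1.2e-06). The Src-family kinase gene Fgr showed the largest decrease of the list, from 0.733 to 2.55 CPM (median 1.3) in WT to 0.157 to 0.409 CPM (median 0.224) in Trem2KO (log2 change -2.38 ± 0.31 SE, adjusted p = 1e-05). Lat2, a membrane adaptor of immune receptors, was at 5.97 to 15.96 CPM (median 10.1) in the WT libraries and 2.07 to 4.95 CPM (median 3.91) in the Trem2KO libraries, again with no overlap and a log2 change of -1.46 ± 0.20 (SE, adjusted p = 1.35e-05). The rest of the lower genes, named after their values were seen, included Lyn (-0.63), Ptpn6 (-1.03), Lcp2 (-0.78), Btk (-0.91), Blnk (-0.46), Vav1 (-0.67), Sh3bp2 (-0.72), Card9 (-0.84), Rac2 (-0.61), Was (-0.57), Malt1 (-0.56), Dock2 (-0.42) and Bcl10 (-0.35), in order of p. They include the Src-family kinase gene Lyn, Btk and the phosphatase gene Ptpn6. Some genes of the chain, also named afterwards, were closer to WT. Syk was at 6.17 to 11.7 CPM in WT and 6.24 to 10.8 CPM in Trem2KO, with a log2 change of -0.06 ± 0.14 (SE, adjusted p = 0.821). Plcg2 was at 7.73 to 15.2 CPM in WT and 9.32 to 14.7 CPM in Trem2KO, with a log2 change of -0.04 ± 0.17 (SE, adjusted p = 0.914). Neither was called, and the libraries of both genotypes covered much the same range.

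Among the other TREM family genes, Treml2, a receptor gene next to Trem2 in the same gene cluster, was the only other tested member. It was at 0.933 to 4.41 CPM (median 2.76) in the WT libraries and 0.647 to 1.54 CPM (median 1.36) in the Trem2KO libraries, and its log2 change was -1.16 ± 0.25 (SE, adjusted p = 0.00246). The 2 groups overlapped in part of that range. Trem1, Trem3, Treml1 and Treml4 were too low for the test, with at most 0.217 CPM in any WT library and 0.192 CPM in any Trem2KO library.

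Genes of the later DAM stage were among the largest decreases of the whole table. Of 22 tested stage 2 genes, 16 were lower, 1 was higher and 5 were not called, with a median of -0.99 on the log2 scale. Itgax encodes the integrin subunit CD11c, a marker of plaque-associated microglia (chromosome 7, 128129568 to 128150657, plus strand, mm10). It was at 13.3 to 33.4 CPM (median 22.8) in the WT libraries and 1.38 to 3.93 CPM (median 2.8) in the Trem2KO libraries. The highest Trem2KO library was under the lowest WT library by a wide margin, and the gene was 8.53-fold lower, a log2 change of -3.09 ± 0.20 (SE, adjusted p = 5.97e-11). Cst7 encodes cystatin F, an inhibitor of lysosomal cathepsins (chromosome 2, 150570415 to 150578944, plus strand). It was at 26.4 to 90.7 CPM (median 50.5) in the WT libraries and 3.12 to 10.4 CPM (median 6.74) in the Trem2KO libraries, without overlap, and its log2 change was -3.02 ± 0.25 (SE, adjusted p = 7.4e-09). Clec7a encodes dectin-1, a receptor for fungal glucans (chromosome 6, 129461591 to 129472779, minus strand). It was at 15.97 to 64.8 CPM (median 32.8) in the WT libraries and 3.06 to 9.2 CPM (median 5.91) in the Trem2KO libraries, again without overlap, with a log2 change of -2.59 ± 0.26 (SE, adjusted p = 2e-07).

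Further stage 2 genes separated the genotypes completely. Cd52, a small surface glycoprotein gene, was at 6.44 to 19.4 CPM (median 9.43) in the WT libraries and 1.59 to 4.13 CPM (median 2.62) in the Trem2KO libraries and changed by -2.11 ± 0.19 (SE, adjusted p = 4.2e-08) on the log2 scale. The chemokine gene Ccl6 changed by -2.34 ± 0.21 (SE, adjusted p = 4.2e-08), the inhibitory receptor gene Lilrb4a by -2.42 ± 0.27 (SE, adjusted p = 8.7e-07) and Ch25h, which makes 25-hydroxycholesterol, by -2.73 ± 0.41 (SE, adjusted p = 5.6e-05). Lpl, the lipoprotein lipase gene, was at 53.5 to 82.2 CPM (median 62.8) in the WT libraries and 24.4 to 36.8 CPM (median 34.3) in the Trem2KO libraries, a log2 change of -1.02 ± 0.12 (SE, adjusted p = 4.12e-06). The cathepsin gene Ctsz was at 92.2 to 215 CPM (median 143) in the WT libraries and 59.6 to 84.3 CPM (median 71.0) in the Trem2KO libraries, a log2 change of -0.98 ± 0.13 (SE, adjusted p = 9.34e-06). Spp1, which encodes the secreted protein osteopontin, was at 10.4 to 34.4 CPM (median 17.8) in the WT libraries and 7.66 to 9.47 CPM (median 8.41) in the Trem2KO libraries. The Trem2KO libraries were close together at the lower end and the WT libraries were widely spread, and the log2 change was -1.10 ± 0.21 (SE, adjusted p = 0.000809). Serpine2, which encodes a protease inhibitor, was lower by a smaller amount, -0.34 ± 0.08 (SE, adjusted p = 0.00383), also without overlap.

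In the remaining stage 2 genes the libraries overlapped or the change was small. Gpnmb (-1.38 ± 0.20 SE, adjusted p = 3.39e-05), the lysosomal Cd68 (-1.0011 ± 0.13 SE, adjusted p = 8.93e-06), the tetraspanin gene Cd9 (-0.61, adjusted p = 0.00183), the cathepsin gene Ctsl (-0.49, adjusted p = 0.000156) and the phagocytic receptor gene Axl (-0.37, adjusted p = 0.00996) were called lower although at least 1 library of each genotype crossed into the range of the other. Timp2, a metalloproteinase inhibitor gene, went the other way, from 236 to 293 CPM (median 280.4) in WT to 334 to 378 CPM (median 348) in Trem2KO without overlap, a log2 change of 0.36 ± 0.08 (SE, adjusted p = 0.00186). Csf1, Cd63, Cadm1, Hif1a and Ank were not called, with log2 changes of -0.22, -0.29, -0.20, -0.19 and -0.12.

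Stage 1 genes divided. Of 7 tested, 4 were lower and 3 were not called, and the list's median was -0.79. Besides Tyrobp, the MHC class I light chain gene B2m (-0.79 ± 0.10 SE, adjusted p = 4.21e-06), the cathepsin gene Ctsd (-0.80 ± 0.12 SE, adjusted p = 5.2e-05) and the lysozyme gene Lyz2 (-0.84 ± 0.15 SE, adjusted p = 0.000564) were lower, each with some overlap of libraries. Apoe, the apolipoprotein gene that astrocytes also express, was at 2017 to 3729 CPM (median 2654) in the WT libraries and 2176 to 2951 CPM (median 2490.0) in the Trem2KO libraries. The Trem2KO range lay inside the WT range, and the log2 change was -0.09 ± 0.15 (SE, adjusted p = 0.746). Ctsb, a cathepsin gene (-0.12, adjusted p = 0.395), and Fth1, the ferritin heavy chain gene (0.03, adjusted p = 0.931), were not called either.

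**Figure D2:**
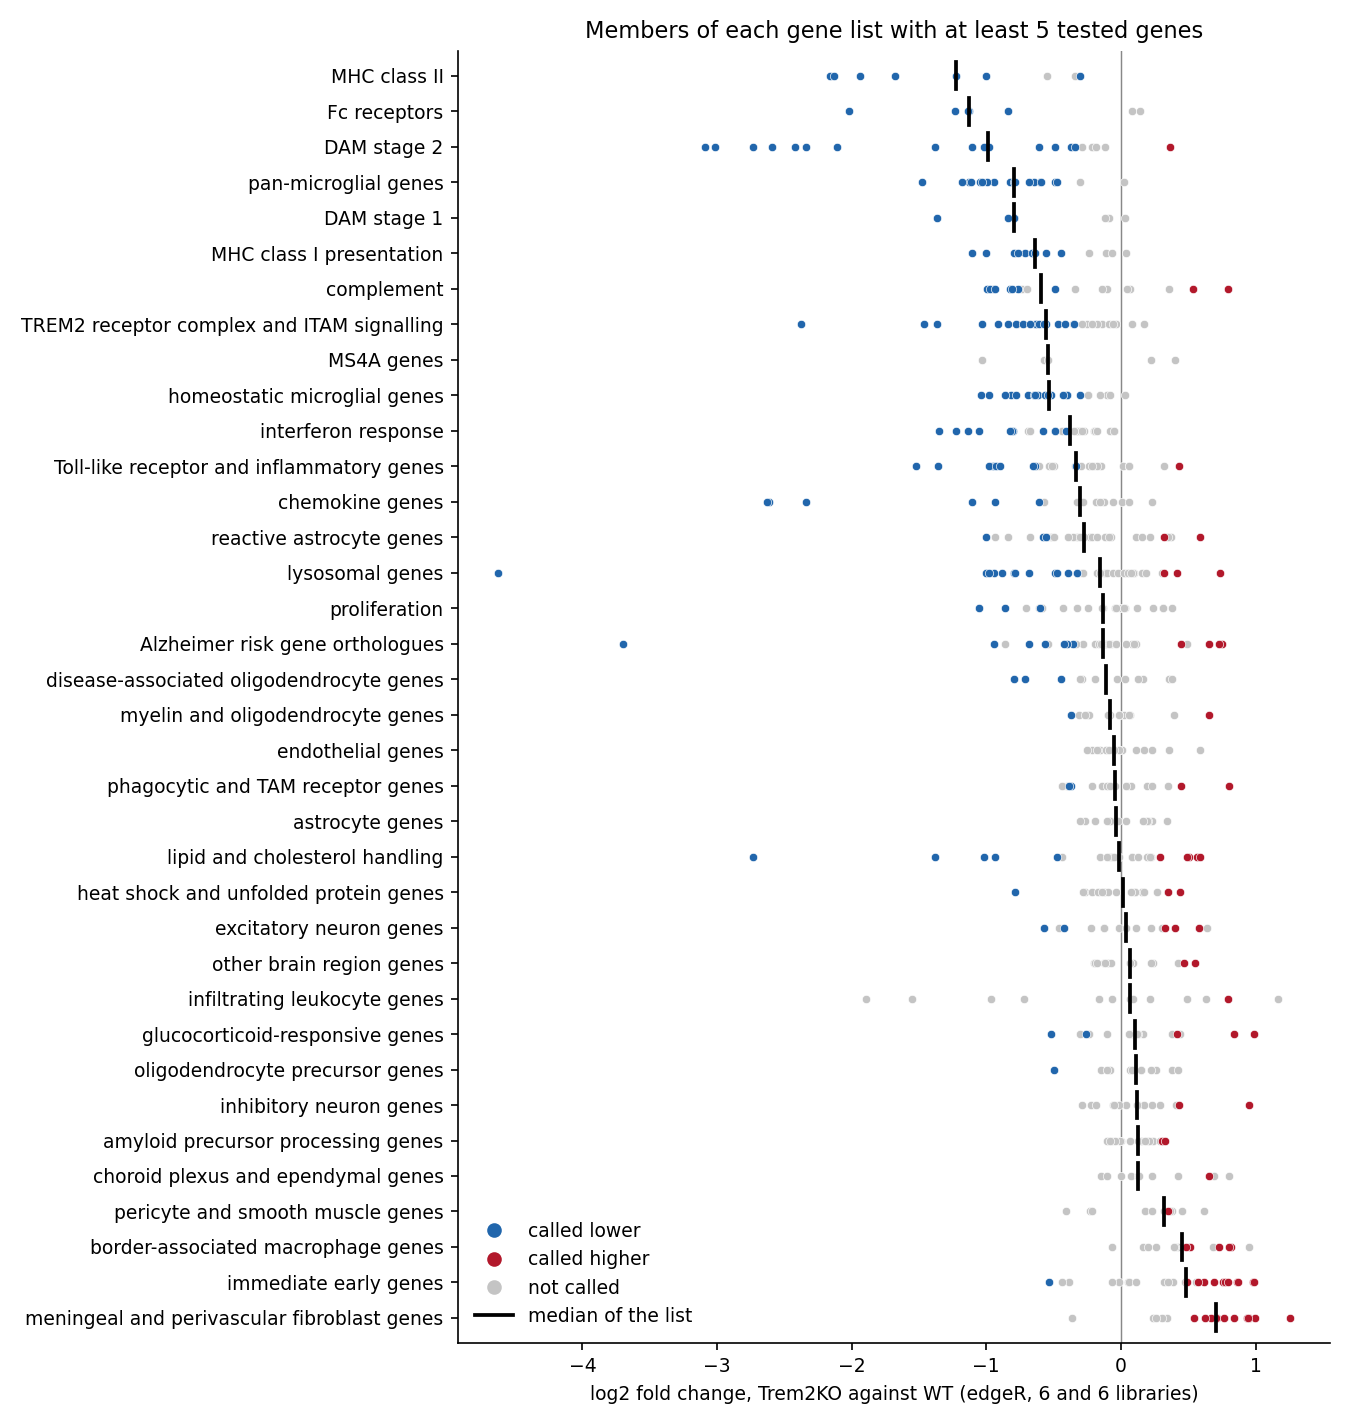
Log2 fold change of Trem2KO against WT for the members of each gene list with at least 5 tested genes, ordered by the list's median. Blue dots were called lower, red dots were called higher and grey dots were not called, and the bar is the median. The MHC class II, Fc receptor and DAM stage 2 lists lie furthest to the negative side, and the fibroblast list, with a median of 0.71, furthest to the positive side among the lists drawn, which leave out groups picked after their values were seen.

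Genes that mark microglia in any state fell as well. Of 19 pan-microglial genes, 17 were lower and 0 higher, with a median log2 change of -0.79, and in 10 of them the groups did not overlap. Ptprc, the gene of the leukocyte antigen CD45, was at 7.51 to 13.8 CPM (median 11.3) in the WT libraries and 3.08 to 4.57 CPM (median 3.86) in the Trem2KO libraries, a log2 change of -1.48 ± 0.15 (SE, adjusted p = 3.35e-07). C1qb, a chain of the complement starter C1q, was at 92.3 to 188 CPM (median 144) in the WT libraries and 53.6 to 86.4 CPM (median 67.4) in the Trem2KO libraries, a log2 change of -0.99 ± 0.11 (SE, adjusted p = 6.56e-07). The transcription factor gene Irf8 was at 14.2 to 30.1 CPM (median 21.2) in the WT libraries and 6.65 to 11.7 CPM (median 9.57) in the Trem2KO libraries, a log2 change of -1.18 ± 0.13 (SE, adjusted p = 9.9e-07). All 3 kept every Trem2KO library under every WT library. The other lower genes, named after their values were seen, included Cd53 (-1.03), Fcer1g (-1.13), Ly86 (-1.11), C1qc (-0.83), C1qa (-0.94), Aif1 (-1.04), Lcp1 (-0.59), Itgam (-0.49), Ctss (-0.79), Laptm5 (-0.65), Cyth4 (-0.60), Unc93b1 (-0.48) and Spi1 (-0.69). Csf1r and Coro1a were the 2 members not called, at -0.30 (adjusted p = 0.149) and 0.03 (adjusted p = 0.931). In these bulk samples, fewer microglia and less RNA of these genes per microglial cell cannot be told apart.

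Homeostatic microglial genes, which are high in resting microglia and usually decline as the DAM programme is taken on, were lower in Trem2KO too. Of 22 tested, 16 were lower and 0 higher, with a median of -0.53. Cx3cr1, the fractalkine receptor gene, was at 125 to 211 CPM (median 163) in the WT libraries and 88.8 to 117 CPM (median 101) in the Trem2KO libraries, a log2 change of -0.69 ± 0.10 (SE, adjusted p = 1.76e-05). Gpr34, a lysophospholipid receptor gene whose span overlaps Cask, changed by -1.04 ± 0.12 (SE, adjusted p = 9.46e-07), and the nucleotide receptor gene P2ry13, inside Med12l, by -0.64 ± 0.10 (SE, adjusted p = 5.25e-05). None of these 3 overlapped between the genotypes. The other lower ones, named after their values were seen, included Csf3r (-0.86), Golm1 (-0.61), Siglech (-0.64), Entpd1 (-0.40), Olfml3 (-0.78), Tgfbr1 (-0.98), P2ry12 (-0.57), Selplg (-0.54), Fcrls (-0.52), Rgs10 (-0.43) and Cd33 (-0.40). Tmem119, a microglial membrane protein gene that was singled out after its value was seen, was at 27.1 to 46.9 CPM (median 35.8) in the WT libraries and 25.5 to 38.6 CPM (median 33.3) in the Trem2KO libraries. The ranges were much the same, and its log2 change was -0.15 ± 0.15 (SE, adjusted p = 0.537).

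To set each gene against the other microglial RNA, its log2(CPM + 0.5) in a library was taken minus the mean of the pan-microglial genes there, the gene itself left out. This is a description without a test, and a gene that did not change at all comes out positive, since the base itself fell: over all tested genes the median difference between Trem2KO and WT was 0.75. All 6 Trem2KO libraries were over all 6 WT libraries in 43% of tested genes on this scale and under them in 0.19%, or 31 genes. Among the 22 stage 2 genes, 7 were under without overlap, 4 over and 11 overlapped. Cst7 differed by -2.14, Itgax by -2.11, Clec7a by -1.68, Ccl6 by -1.46, Cd52 by -1.13, Lilrb4a by -1.06 and Ch25h by -0.90, each with all Trem2KO libraries under all WT libraries. The added 0.5 shrinks the differences of genes at low CPM, such as Lilrb4a and Ch25h. Gpnmb (-0.53), Spp1 (-0.28) and Lpl (-0.24) overlapped. Tyrobp differed by -0.56 without overlap. In the homeostatic list none of 22 genes was under without overlap, 4 were over and 18 overlapped, with Cx3cr1 at 0.08, P2ry12 at 0.21 and Tmem119 at 0.62. Apoe was over without overlap, by 0.69.

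**Figure D3:**
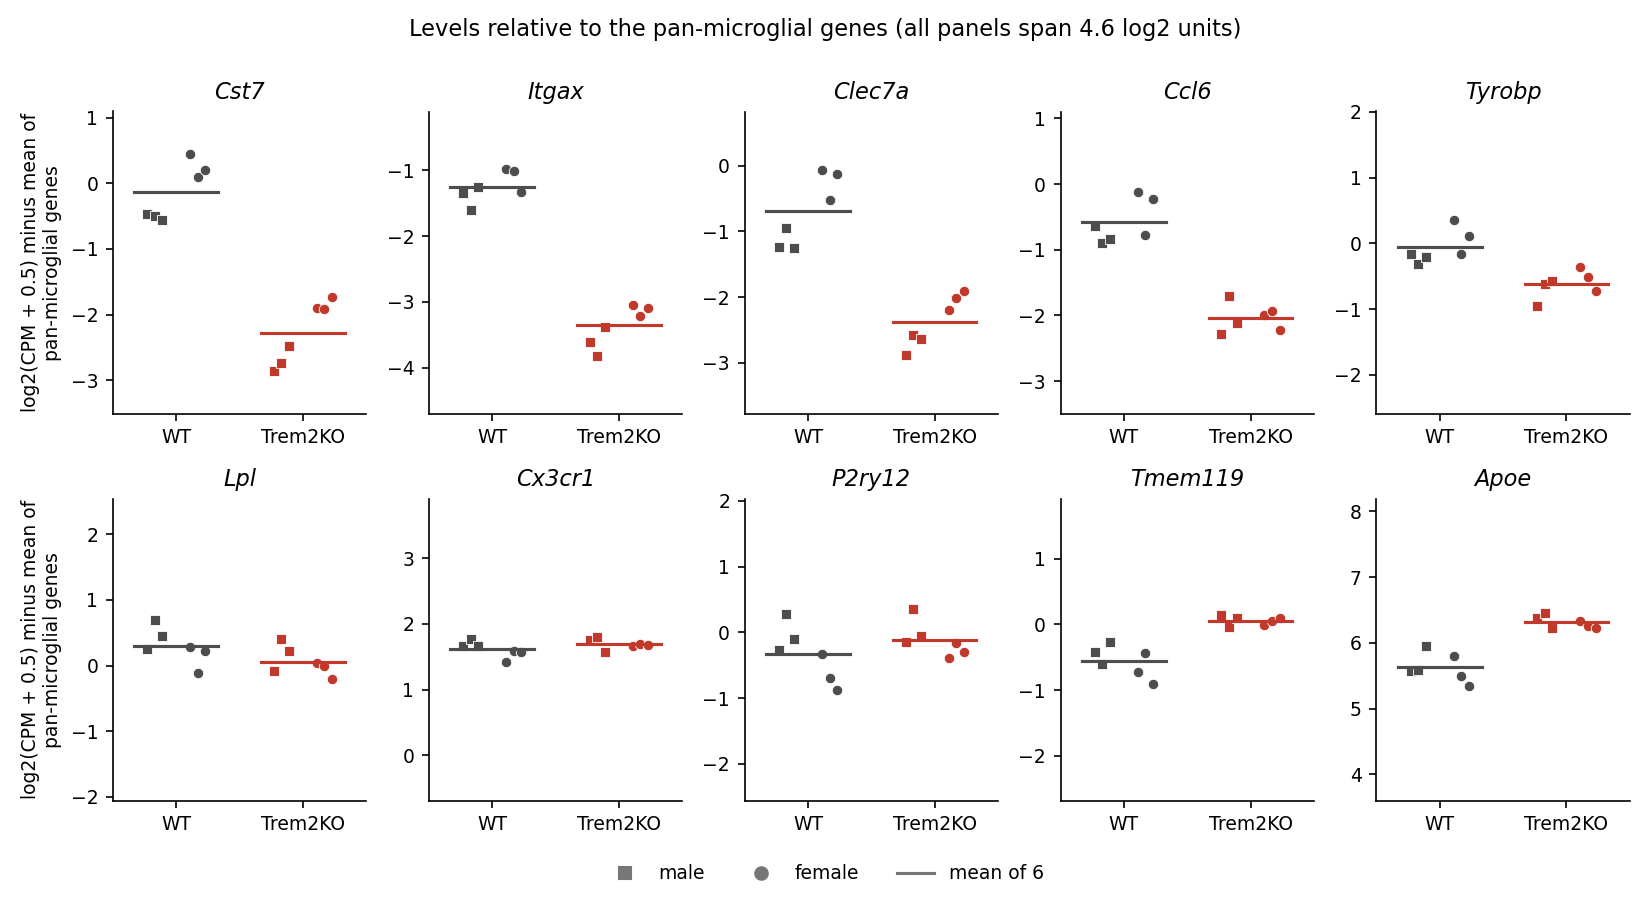
Level of 10 genes relative to the pan-microglial genes in each library, as log2(CPM + 0.5) minus the mean of those genes. Squares are males and circles are females, and every panel spans the same number of log2 units. Cst7, Itgax, Clec7a, Ccl6 and Tyrobp lie lower in Trem2KO without overlap, Lpl, Cx3cr1 and P2ry12 overlap, and Tmem119 and Apoe lie higher.

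Chemokine and Fc receptor genes were lower where they were called. Of 16 chemokine genes, 6 were lower and 0 higher (median -0.31). Ccl3, a chemokine made by activated microglia, was at 4.34 to 10.8 CPM (median 6.17) in the WT libraries and 0.529 to 1.5 CPM (median 1.08) in the Trem2KO libraries, a log2 change of -2.62 ± 0.26 (SE, adjusted p = 2.24e-07). Its neighbour Ccl4 was at 0.955 to 3.67 CPM (median 1.56) in the WT libraries and 0.132 to 0.409 CPM (median 0.299) in the Trem2KO libraries, a log2 change of -2.63 ± 0.39 (SE, adjusted p = 4.64e-05). Both were lower in every Trem2KO library than in any WT library, and relative to the pan-microglial genes they still differed by -1.41 and -0.71. That scale adds 0.5 to each CPM, which shrinks differences of genes as low as Ccl4, so the 2 values are not comparable in size. Besides Ccl6, the other lower chemokine genes were Cxcl16 (-1.10), Ccl9 (-0.61) and Ccl12 (-0.94), named after their values were seen. Of 7 Fc receptor genes, 5 were lower (median -1.13): Fcgr2b (-1.23 ± 0.11 SE, adjusted p = 6.32e-08), Fcgr4 (-2.02 ± 0.26 SE, adjusted p = 8.4e-06), Fcgr3 (-1.14 ± 0.15 SE, adjusted p = 8.83e-06), and, named after their values were seen, Fcer1g (-1.13) and Fcgr1 (-0.84). Relative to the pan-microglial genes, 0 of the Fc receptor genes were under without overlap.

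Complement genes were called in both directions. Of 18 tested, 8 were lower and 2 higher (median -0.59). The shares to set beside the counts of this paragraph are 8.16% lower and 7.56% higher over all tested genes. The lower ones included the 3 C1q chains and receptors of myeloid cells, such as Itgb2, the integrin beta chain of the complement receptor CR3 (-0.81 ± 0.09 SE, adjusted p = 1.2e-06), and C3ar1, the C3a receptor gene (-0.97 ± 0.12 SE, adjusted p = 4.21e-06). The 2 higher ones, named after their values were seen, were C2 (0.80 ± 0.18 SE, adjusted p = 0.00381) and the C1 inhibitor gene Serping1 (0.53 ± 0.13 SE, adjusted p = 0.00693). Of 26 Toll-like receptor and inflammatory genes, 9 were lower and 1 higher (median -0.34). Tlr2, a receptor for lipopeptides, was at 3.58 to 10.4 CPM (median 6.72) in the WT libraries and 1.24 to 3.09 CPM (median 2.5) in the Trem2KO libraries, a log2 change of -1.52 ± 0.19 (SE, adjusted p = 5.16e-06). The lipopolysaccharide co-receptor gene Cd14 changed by -1.36 ± 0.20 (SE, adjusted p = 3.39e-05) and the cytokine gene Il1a by -0.95 ± 0.16 (SE, adjusted p = 0.000302). The higher gene was Irak3 (0.43 ± 0.14 SE, adjusted p = 0.0376), an inhibitor of Toll-like receptor signalling, named after its value was seen, and this call was lost when any of 8 of the 12 libraries was left out. With the 12 libraries alone, 2 genes of the list were higher.

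Genes of antigen presentation and of the interferon response were lower or not called. Of 9 MHC class II genes, 7 were lower (median -1.23). Cd74, the invariant chain that guides class II molecules, was at 13.5 to 42.5 CPM (median 26.7) in the WT libraries and 5.2 to 7.88 CPM (median 6.53) in the Trem2KO libraries, a log2 change of -2.16 ± 0.21 (SE, adjusted p = 1.21e-07). The class II chain genes H2-Aa and H2-Ab1 changed by -2.13 ± 0.26 (SE, adjusted p = 4.15e-06) and -1.94 ± 0.24 (SE, adjusted p = 5.01e-06). These 3 genes did not overlap between the genotypes. H2-Oa (-1.68), H2-DMb1 (-1.0003), H2-Eb1 (-1.23) and H2-DMa (-0.31), named after their values were seen, were lower as well. Of 13 class I genes, 9 were lower (median -0.64), with the immunoproteasome subunit gene Psmb8 at -1.0011 ± 0.18 (SE, adjusted p = 0.000474) and the class I heavy chain gene H2-K1 at -0.72 ± 0.14 (SE, adjusted p = 0.000957), though no class I gene separated the groups fully. MHC genes have close copies, so reads can be shared or lost among them. Of 28 interferon response genes, 11 were lower (median -0.38), and the libraries overlapped in all of these. Trim30a (-1.05 ± 0.19 SE, adjusted p = 0.000442), Rtp4 (-0.82 ± 0.18 SE, adjusted p = 0.0029) and Irgm1 (-0.49 ± 0.12 SE, adjusted p = 0.00565) had the smallest p. The well-known interferon targets Ifit1, Isg15 and Irf7, picked after their values were seen, were not called, at -0.19, -0.44 and -0.30.

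Lysosomal and lipid genes were called in both directions. Over all tested genes, 8.16% were called lower and 7.56% higher, the shares to set beside the counts of this paragraph. Of 35 lysosomal genes, 14 were lower and 3 higher (median -0.16). Atp6v0d2, a subunit of the proton pump of macrophages and osteoclasts, had the most negative fold change of the lists' genes but very few reads: it was at 0.311 to 1.31 CPM (median 0.744) in the WT libraries and 0 to 0.103 CPM (median 0.0156) in the Trem2KO libraries, with 0 to 6 reads per Trem2KO library against 14 to 65 per WT library. The lysosomal genes lower by the smallest p after it were Cd68 and Ctsz, given above. The 3 higher ones, named after their values were seen, were Gaa (0.74 ± 0.14 SE, adjusted p = 0.000814), Npc1 (0.41 ± 0.09 SE, adjusted p = 0.00303) and Psap (0.32 ± 0.10 SE, adjusted p = 0.0288), which are expressed widely in brain. With the 12 libraries alone, 5 lysosomal genes were higher. Of 25 lipid and cholesterol genes, 5 were lower and 5 higher (median -0.02). Lpl, Gpnmb, Ch25h, Apobec1 and Npc2 were lower. Srebf2 (0.58 ± 0.13 SE, adjusted p = 0.00315) and Srebf1 (0.57 ± 0.16 SE, adjusted p = 0.0139), the main regulators of sterol and fatty acid synthesis genes, Lrp1 (0.49) and the cholesterol exporter gene Abca1 (0.51) were among the higher ones. Apobec1, Npc2 and these 4 higher lipid genes were named after their values were seen, and 3 lipid genes were called higher without Trem2KO F1 or without WT F3.

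Orthologues of Alzheimer risk genes moved both ways, and few genes of amyloid processing were called. Of 30 risk gene orthologues, 7 were lower, Trem2 among them, and 4 were higher (median -0.13). Over all tested genes, 8.16% were called lower and 7.56% higher. The count of lower genes was 4 without Trem2KO F2 or without WT F1, and 11 with the 12 libraries alone. Ctsh, a cathepsin gene, was lower (-0.94 ± 0.16 SE, adjusted p = 0.00019). Sorl1, a sorting receptor of the amyloid precursor protein, was at 83.3 to 167 CPM (median 111) in the WT libraries and 174 to 216 CPM (median 194) in the Trem2KO libraries, without overlap, a log2 change of 0.73 ± 0.13 (SE, adjusted p = 0.000366). Slc24a4 (0.65), Ace (0.75) and Ptk2b (0.45), named after their values were seen, were the other higher ones. Of 17 amyloid precursor processing genes, 0 were lower and 2 higher (median 0.13), where 15.7% of all tested genes were called. The 2 were Ncstn, a subunit of gamma-secretase (0.33 ± 0.10 SE, adjusted p = 0.0186), and App (0.30 ± 0.10 SE, adjusted p = 0.0368). The higher genes numbered 5 with the 12 libraries alone and 3 with GC and length offsets. Without Trem2KO F3 neither was called, and App was not called when any of 9 of the 12 libraries was left out. App was at 1621 to 2492 CPM (median 1937) in the WT libraries and 2241 to 2649.7 CPM (median 2469.5) in the Trem2KO libraries. These ranges overlap between 2241 and 2492 CPM. Whether reads of the human transgene were counted with App is not known.

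Genes of fibroblasts rose. Of 17 genes of meningeal and perivascular fibroblasts, 12 were higher and 0 lower, with a median of 0.71, and in 10 of them all Trem2KO libraries were over all WT libraries, against 5.8% of all tested genes. Col1a2, a chain of type I collagen, was at 10.02 to 17.9 CPM (median 14.9) in the WT libraries and 25.6 to 29.8 CPM (median 28.3) in the Trem2KO libraries, a log2 change of 0.94 ± 0.12 (SE, adjusted p = 9.34e-06). Fmod, which encodes the matrix proteoglycan fibromodulin, was at 17.2 to 30.9 CPM (median 25.8) in the WT libraries and 38.8 to 54.9 CPM (median 47.8) in the Trem2KO libraries, a log2 change of 0.95 ± 0.14 (SE, adjusted p = 6.07e-05). Col1a1, the other chain of type I collagen, was at 4.31 to 7.05 CPM (median 5.72) in the WT libraries and 7.97 to 13.3 CPM (median 11.2) in the Trem2KO libraries, a log2 change of 0.95 ± 0.15 (SE, adjusted p = 0.000108). In all 3 the lowest Trem2KO library was over the highest WT library. The other higher genes, named after their values were seen, were Aldh1a2 (0.71), Col3a1 (0.76), Slc13a3 (0.67), Ogn (0.84), Slc6a13 (0.63), Fn1 (0.71) and Lum (0.54), besides Prg4 and Crabp2. Prg4, the lubricin gene, whose span overlaps Tpr (1.26 ± 0.20 SE, adjusted p = 0.000119), and the retinoic acid binding protein gene Crabp2 (0.99 ± 0.17 SE, adjusted p = 0.000199) stood among the 12 largest increases among genes that were called and averaged a log2 CPM of at least 1. The mean log2 level of the fibroblast list, set against the WT mean, was -0.20 to 0.15 in WT and 0.54 to 0.69 in Trem2KO. Fibroblasts of the brain lie in the meninges and around larger vessels. The labels do not give how much meninges each sample held, and its part in these increases was not tested.

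Border-associated macrophages, the macrophages of meninges and perivascular spaces, share myeloid genes with microglia. Of 14 of their marker genes, 5 were higher and 0 lower (median 0.45). Stab1, a scavenger receptor gene, was at 10.4 to 17.3 CPM (median 13.9) in the WT libraries and 17.2 to 29.8 CPM (median 24.8) in the Trem2KO libraries, a log2 change of 0.81 ± 0.16 (SE, adjusted p = 0.00102). Mrc1, the gene of the mannose receptor CD206, was at 2.3 to 4.18 CPM (median 3.47) in the WT libraries and 4.78 to 6.61 CPM (median 6.09) in the Trem2KO libraries, a log2 change of 0.81 ± 0.19 (SE, adjusted p = 0.00405). F13a1, a transglutaminase gene of these macrophages, changed by 0.49 ± 0.14 (SE, adjusted p = 0.0201) and was not called without Trem2KO F2 or without WT F1. Cbr2 (0.73) and Cd163 (0.51), named after their values were seen, completed the higher ones. Mrc1 separated the genotypes, and the other 4 overlapped. The count fell to 2 or 3 when 1 of 6 libraries was left out (Trem2KO F1, F2, F3 or M3, or WT F1 or M1), and it was 8 with the 12 libraries alone. In the fibroblast list, leaving out any library left 10 to 12 genes called higher. The mean log2 level of the list was -0.28 to 0.16 in WT and 0.13 to 0.50 in Trem2KO, against -0.44 to 0.41 in WT and -1.02 to -0.55 in Trem2KO for the pan-microglial list.

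**Figure D4:**
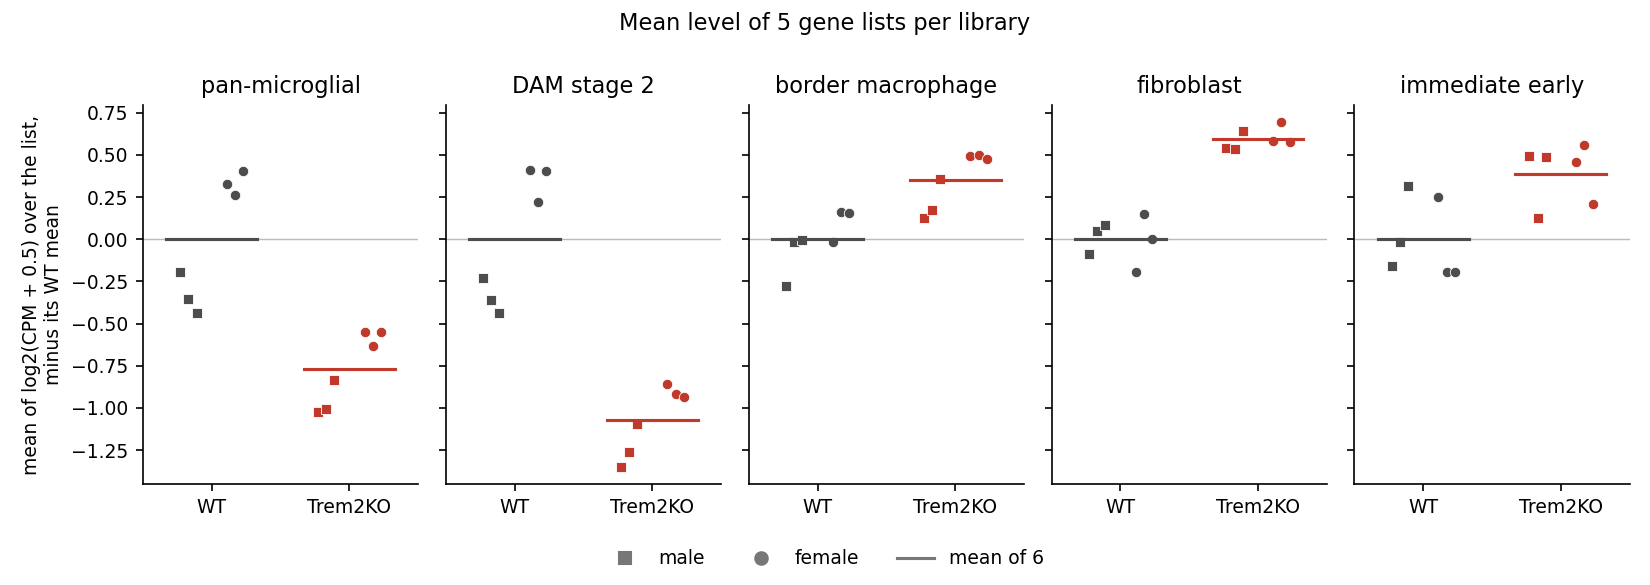
Mean log2(CPM + 0.5) of 5 gene lists in each library, minus the WT mean of that list. Squares are males and circles are females. The pan-microglial and DAM stage 2 lists lie lower in all 6 Trem2KO libraries, the fibroblast list lies higher in all 6, and the border-associated macrophage and immediate early lists overlap between the genotypes.

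Other large increases were spread over several kinds of genes. Pcdh1, a protocadherin gene, was at 44.7 to 89.7 CPM (median 64.7) in the WT libraries and 121 to 182 CPM (median 138) in the Trem2KO libraries, a log2 change of 1.15 ± 0.18 (SE, adjusted p = 0.000119). Nos1, the gene of neuronal nitric oxide synthase, was at 34.9 to 65.5 CPM (median 53.4) in the WT libraries and 96.1 to 106 CPM (median 99.5) in the Trem2KO libraries, a log2 change of 0.99 ± 0.11 (SE, adjusted p = 6.05e-07). In both of them, all Trem2KO libraries were over all WT libraries. Eya2, a transcriptional co-factor gene (1.22 ± 0.21 SE, adjusted p = 0.000256), and the protocadherin gamma genes Pcdhgc4 (1.06 ± 0.15 SE, adjusted p = 1.63e-05) and Pcdhga11 (1.0002 ± 0.12 SE, adjusted p = 4.36e-06) did not overlap either, but the protocadherin gamma genes share 3' exons, so reads cannot be given to single members with certainty. Cdhr1, a cadherin-related gene (1.12 ± 0.19 SE, adjusted p = 0.000215), Cyr61, a matricellular protein gene (1.01 ± 0.25 SE, adjusted p = 0.00657), and the lipid droplet gene Plin4 (0.99 ± 0.34 SE, adjusted p = 0.0464) overlapped. Plin4 was no longer called when any of 9 of the 12 libraries was left out, nor with GC and length offsets. Among the 12 largest decreases of called genes above the same average level, Cybb, a subunit of the phagocyte NADPH oxidase, was at 2.44 to 7.49 CPM (median 4.53) in the WT libraries and 1.01 to 1.48 CPM (median 1.19) in the Trem2KO libraries, a log2 change of -1.94 ± 0.24 (SE, adjusted p = 3.63e-06).

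Immediate early genes, which neurons switch on within minutes of activity, were higher as a group of single calls. Of 24 tested, 11 were higher and 1 was lower (median 0.49), but in none of the higher ones were the genotypes free of overlap. Fos was at 14.6 to 35.3 CPM (median 22.3) in the WT libraries and 29.1 to 63.6 CPM (median 48.8) in the Trem2KO libraries, a log2 change of 0.99 ± 0.19 (SE, adjusted p = 0.000821). Fosb was at 10.6 to 17.7 CPM (median 14.3) in the WT libraries and 16.2 to 32.3 CPM (median 23.7) in the Trem2KO libraries, a log2 change of 0.76 ± 0.16 (SE, adjusted p = 0.00245). Egr4 was at 6.54 to 21.97 CPM (median 14.3) in the WT libraries and 18.8 to 35.5 CPM (median 28.6) in the Trem2KO libraries, a log2 change of 0.98 ± 0.22 (SE, adjusted p = 0.00276). Trem2KO F3 lay inside the WT range for Fos (29.1 CPM), and Trem2KO M2 did so for Fosb (16.2 CPM) and Egr4 (18.8 CPM). The other Trem2KO libraries were over the WT range of each gene. Arc (0.86), which acts at synapses, Nr4a1 (0.79) and Junb (0.77), all named after their values were seen, changed by similar amounts, and the further higher ones were Ier2 (0.69), Egr2 (0.87), Dusp1 (0.62), Egr1 (0.49) and Fosl2 (0.57). Homer1, also named afterwards, was the lower one, at 108 to 163 CPM (median 118) in the WT libraries and 77.6 to 94.9 CPM (median 84.1) in the Trem2KO libraries, without overlap, a log2 change of -0.53 ± 0.14 (SE, adjusted p = 0.00859). The list's mean level was -0.20 to 0.32 in WT and 0.13 to 0.56 in Trem2KO. With the 12 libraries alone and offsets for GC content and length, 6 members were called higher.

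Many immediate early promoters hold the core of the cyclic AMP response element, TGACG, which is bound by CREB-family factors. The core was not among the motifs planned for this search. It was searched on both strands in the 250 bases before the first start listed for each gene, in promoter sequences from RefSeq (GRCm38.p6), and was found in 12 of 20 immediate early promoters (60%), in 25.5% of 12170 promoters of tested genes and in 3 of 18 promoters of DAM stage 2 genes (16.7%). The full palindrome TGACGTCA, a planned motif that contains the core, was in 2 of 20 immediate early promoters and in 2.65% of the promoters of tested genes. The other planned motifs, searched in the same way, were the CArG box and GAGGAAGT. The CArG box, the site of serum response factor, was found in 0 of 20 immediate early promoters and 1.16% of those of tested genes. GAGGAAGT, a site of the myeloid factor PU.1, was found in 0 of 20 and 2.21%, and in 1 of 18 promoters of DAM stage 2 genes. Of the members with the core, Dusp1, Egr4, Fos, Fosb, Junb and Nr4a1 were called higher. Homer1 was called lower, and Btg2, Klf4, Npas4, Nr4a2 and Nr4a3 were not called. Whether the core goes with the calls was not tested. The promoters of Fos, at chr12:85473640-85473889 (+ strand), of Nr4a1, at chr15:101266596-101266845 (+ strand), and of Junb, at chr8:84978749-84978998 (- strand), are shown as examples from the genes called higher. Matches on either strand are in capitals (TGACG or, for the other strand, CGTCA).
Fos: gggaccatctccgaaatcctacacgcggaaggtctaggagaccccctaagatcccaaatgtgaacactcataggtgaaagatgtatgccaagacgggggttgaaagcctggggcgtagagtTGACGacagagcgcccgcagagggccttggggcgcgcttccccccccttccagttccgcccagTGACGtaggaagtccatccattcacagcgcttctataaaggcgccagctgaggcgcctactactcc
Nr4a1: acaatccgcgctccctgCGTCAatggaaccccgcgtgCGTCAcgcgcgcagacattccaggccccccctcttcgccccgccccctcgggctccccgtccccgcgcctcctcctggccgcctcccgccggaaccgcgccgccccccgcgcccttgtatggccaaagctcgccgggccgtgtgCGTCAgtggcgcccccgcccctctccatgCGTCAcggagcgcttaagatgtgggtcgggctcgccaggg
Junb: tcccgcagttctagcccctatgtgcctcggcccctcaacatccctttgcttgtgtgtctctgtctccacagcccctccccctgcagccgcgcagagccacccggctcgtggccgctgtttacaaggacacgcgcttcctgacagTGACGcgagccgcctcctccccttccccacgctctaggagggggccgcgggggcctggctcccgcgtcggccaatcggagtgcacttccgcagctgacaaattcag
Fos has 2 matches, Nr4a1 has 4 and Junb has 1. A match is a description of these letters, and no binding was measured.

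Genes of hormone and stress responses were called in both directions. Of 16 glucocorticoid-responsive genes, 3 were higher and 2 lower (median 0.10), where 15.7% of all tested genes were called, and with the 12 libraries alone 4 were higher and 3 lower. The clock gene Per1 (0.84 ± 0.20 SE, adjusted p = 0.00444) and Plin4 were higher, and so was Zbtb16 (0.42), named after its value was seen. Klf9, a transcription factor gene (-0.52 ± 0.11 SE, adjusted p = 0.00153), and Fam107a (-0.26 ± 0.08 SE, adjusted p = 0.023) were lower. The count of higher genes was 1 with GC and length offsets and 1 or 2 when 1 of 6 libraries was left out (Trem2KO F1, F2 or F3, or WT F1, F3 or M2). Fam107a was not called without Trem2KO F3, WT F1 or WT M1. Of 20 heat shock and unfolded protein genes, Hyou1, an endoplasmic reticulum chaperone gene (0.44 ± 0.10 SE, adjusted p = 0.00289), and the stress transcription factor gene Atf4 (0.35 ± 0.09 SE, adjusted p = 0.0113) were higher and Atf3 (-0.79 ± 0.20 SE, adjusted p = 0.00913) was lower, and the median was 0.02, with 3 higher and 4 lower in the 12 libraries alone. Of 23 proliferation genes, Cdk1 (-1.05 ± 0.28 SE, adjusted p = 0.0111), Tyms (-0.60 ± 0.20 SE, adjusted p = 0.0375) and Ccnb2 (-0.86 ± 0.28 SE, adjusted p = 0.0391) were lower and none was higher (median -0.13), against 4 lower and 3 higher in the 12 libraries alone. The levels of Cdk1, Tyms and Ccnb2 were at most 2.25 CPM in any library. Tyms lost its call when any of 10 of the 12 libraries was left out and Ccnb2 when any of 8 was, whereas Cdk1 kept it in all 12.

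Markers of neurons and glia were called in both directions. Of 15 excitatory neuron genes, 2 were lower and 3 higher (median 0.04), where 15.7% of all tested genes were called. Nrn1, which encodes a neurite growth protein (-0.57 ± 0.11 SE, adjusted p = 0.00081), and Neurod6 (-0.42) were lower. Cux2, an upper-layer transcription factor gene (0.40 ± 0.09 SE, adjusted p = 0.00458), Grin1, the obligate NMDA receptor subunit gene (0.58 ± 0.16 SE, adjusted p = 0.0145), and Camk2a (0.33) were higher. Neurod6 and Camk2a were named after their values were seen, and 1 gene of the list rather than 2 was lower without Trem2KO F3, Trem2KO M1 or WT F1. With the 12 libraries alone, 3 genes of this list were lower and 6 higher, and 1 and 5 of the inhibitory list. Of 15 inhibitory neuron genes, the receptor gene Erbb4 (0.95 ± 0.15 SE, adjusted p = 0.000133) and the vesicular GABA transporter gene Slc32a1 (0.43 ± 0.10 SE, adjusted p = 0.00357) were higher and none was lower. Of 15 genes of other brain regions, Calb2 (0.55 ± 0.14 SE, adjusted p = 0.00765) and Zic1 (0.47 ± 0.14 SE, adjusted p = 0.0206) were higher (median 0.07), and Zic1 was not called without Trem2KO F2, Trem2KO M2 or WT F3.

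Over all tested genes 15.7% were called, the share to set beside each count of this paragraph. Of 15 astrocyte genes none was called (median -0.03), although with the 12 libraries alone 2 were lower and 3 higher and with GC and length offsets 1 and 1. Of 29 reactive astrocyte genes 3 were lower and 2 higher (median -0.27). The lower ones were Psmb8, the proteoglycan gene Srgn (-0.55 ± 0.13 SE, adjusted p = 0.00534) and, named after its value was seen, Ggta1 (-0.58), and the higher ones were Fbln5 (0.59 ± 0.13 SE, adjusted p = 0.00283) and, named afterwards, Cp (0.32). The list had 1 higher gene when any of 7 libraries was left out. With the 12 libraries alone, 8 genes of this list were lower. Gfap, the classical marker of reactive astrocytes and also picked afterwards, was not called: it was at 733 to 2396 CPM (median 1463) in the WT libraries and 756 to 1783 CPM (median 1165) in the Trem2KO libraries, a log2 change of -0.22 ± 0.22 (SE, adjusted p = 0.555). The WT values of Gfap separated by sex, at 733 to 983 CPM in males and 1944 to 2396 CPM in females. Of 15 myelin genes, Mobp (-0.37 ± 0.09 SE, adjusted p = 0.00571) was lower and the myelin transcription factor gene Myrf (0.65 ± 0.15 SE, adjusted p = 0.00313) higher, counts that were 3 and 2 with GC and length offsets and 4 and 2 with the 12 libraries alone. Of 12 disease-associated oligodendrocyte genes, B2m, H2-K1 and H2-D1 (-0.44 ± 0.11 SE, adjusted p = 0.0062) were lower, all of them class I genes. Among 12 oligodendrocyte precursor genes, Bcas1 (-0.49 ± 0.11 SE, adjusted p = 0.00325) was lower and none was higher, but 3 were higher with GC and length offsets and 4 with the 12 libraries alone.

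For the lists that follow, the share to set beside each count is the 15.7% called over all tested genes. Of 16 endothelial genes none was called (median -0.05). Of 11 pericyte and smooth muscle genes (median 0.32), the channel subunit gene Abcc9 was higher (0.35 ± 0.12 SE, adjusted p = 0.0411). This call was lost when any of 9 of the 12 libraries was left out, while 4 genes of the list were higher with the 12 libraries alone. Of 13 tested genes of infiltrating leukocytes, Cd209a, a lectin gene of dendritic cells and monocytes, was higher (0.80 ± 0.22 SE, adjusted p = 0.0132), at 0.368 to 0.887 CPM in WT and 0.982 to 1.7 CPM in Trem2KO, but not without Trem2KO F3. The defining T cell genes Cd3e and Cd8a reached at most 0.345 and 0.356 CPM in WT, and no T cell, B cell or neutrophil gene of the list was called. Of 12 choroid plexus and ependymal genes, Kcnj13 was higher (0.66 ± 0.21 SE, adjusted p = 0.0296), at 0.977 to 1.62 CPM in WT and 1.64 to 2.26 CPM in Trem2KO, a call lost when any of 6 libraries was left out. Of 17 phagocytic receptor genes, Stab1 and the engulfment gene Dock1 (0.44 ± 0.10 SE, adjusted p = 0.00271) were higher, and Axl and Pros1 (-0.39, named after its value was seen) were lower, and the list had 1 lower gene when any of 7 libraries was left out. None of 5 MS4A genes was called, against 2 lower with the 12 libraries alone (median -0.54).

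The Trem2 difference was measured in both sexes, with more calls in females. In males 115 genes were called (0.705% of tested genes), 97 lower and 18 higher, and in females 1529 were called (9.37%), 738 lower and 791 higher. A test of the sex difference itself called 0 genes (0%), with the smallest adjusted p at 0.9999, 474 genes at an unadjusted p under 0.05, and 0 calls by DESeq2, with 565 unadjusted. The larger number of calls in females is therefore not shown to be a larger effect. Leaving out 1 library of the sex moved the count to between 29 (without Trem2KO M2) and 84 in males and between 505 (without WT F1) and 1845 in females. In the DAM stage 2 list, 9 genes were lower in males (median -0.58) and 16 in females (median -1.15). In the pan-microglial list the counts were 5 (median -0.71) and 17 (median -0.97), and in the fibroblast list 4 and 7 genes were higher (medians 0.72 and 0.68).

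Levels of microglial genes in WT were higher in the 3 females than in the 3 males, in the pan-microglial list as in the DAM list, and this was not tested. The mean log2 level of the pan-microglial list, set against the mean of all WT libraries, was -0.44 to -0.20 in WT males and 0.26 to 0.41 in WT females. The mean log2 level of the DAM stage 2 list, on the same scale, was -0.44 to -0.23 in WT males and 0.22 to 0.41 in WT females, and -1.35 to -1.10 in Trem2KO males and -0.93 to -0.86 in Trem2KO females. Cst7 was at 26.4 to 33.1 CPM in WT males and 67.9 to 90.7 CPM in WT females, and at 3.12 to 4.89 CPM in Trem2KO males and 8.6 to 10.4 CPM in Trem2KO females. Trem2 was at 46.5 to 57.4 CPM in WT males and 104 to 119 CPM in WT females, and its log2 change was -3.33 ± 0.22 (SE, adjusted p = 3.16e-09) in males and -4.03 ± 0.23 (SE, adjusted p = 9.12e-11) in females. In both genes the WT sexes did not overlap. Spp1 had the smallest p for a sex difference among the stage 2 genes: WT males were at 10.4 to 14.3 CPM and WT females at 21.3 to 34.4 CPM, while the Trem2KO libraries of both sexes lay within 7.66 to 9.47 CPM. Its log2 change was -0.48 in males and -1.71 in females, a difference of -1.23 ± 0.29 (SE, unadjusted p = 0.000285) that did not pass adjustment. The other genes with the smallest p for a sex difference were the transporter gene Abcb1a (0.9968 ± 0.23 SE, unadjusted p = 0.000238), Cd93 (1.16 ± 0.28 SE, unadjusted p = 0.000419), Klhl6 (-1.12 ± 0.28 SE, unadjusted p = 0.000459) and Bahd1 (0.66 ± 0.17 SE, unadjusted p = 0.000591), given as female minus male log2 change, and none passed adjustment.

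**Figure D5:**
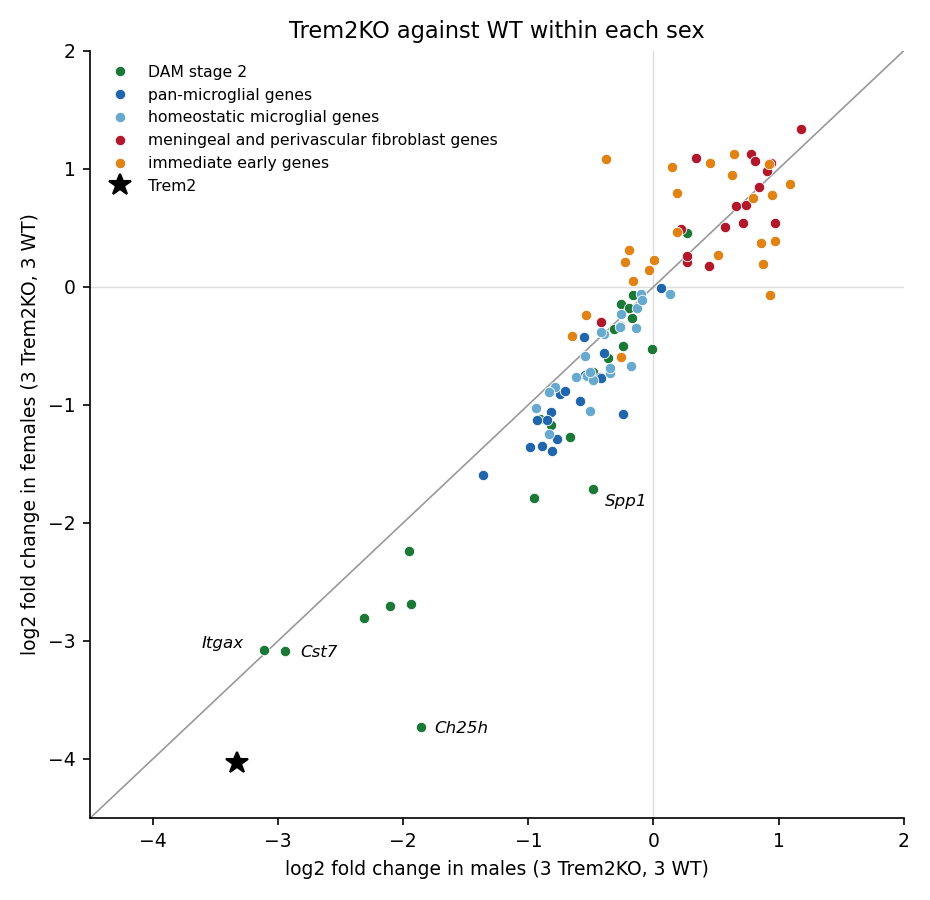
Log2 fold change of Trem2KO against WT in males (horizontal) and females (vertical) for the members of 5 gene lists, with Trem2 as a star. Most DAM stage 2 and pan-microglial genes are negative in both sexes, most fibroblast genes are positive in both, and Trem2 is at -3.33 in males and -4.03 in females.

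Loss of Trem2 was also set against loss of Plcg2, the phospholipase downstream of the receptor, in a direct contrast of the 2 knockouts. Of tested genes, 2684 were called (16.5%), 1245 lower and 1439 higher in Trem2KO, but 1031 with GC and length offsets and as few as 769 when a Trem2KO library, M1, was left out. Of 113 named genes, 26 were called, 18 of them higher in Trem2KO, and 10 of the 26 were called with the offsets as well. Trem2 was at 4.59 to 7.45 CPM (median 5.97) in the Trem2KO libraries and 14.1 to 28.6 CPM (median 17.9) in the Plcg2KO libraries, a log2 difference of -1.80 ± 0.17 (SE, adjusted p = 3.55e-07), so both knockouts were under WT and Trem2KO was lower still. Itgax was at 1.38 to 3.93 CPM (median 2.8) in the Trem2KO libraries and 0.232 to 1.83 CPM (median 0.796) in the Plcg2KO libraries, a log2 difference of 1.39 ± 0.22 (SE, adjusted p = 0.000765). Cst7 was at 3.12 to 10.4 CPM (median 6.74) in the Trem2KO libraries and 0.82 to 5.59 CPM (median 2.52) in the Plcg2KO libraries, a log2 difference of 0.99 ± 0.25 (SE, adjusted p = 0.0136). In these 2 stage 2 genes the knockouts overlapped and Trem2KO was the higher one. Cd68 (0.50 ± 0.13 SE, adjusted p = 0.0169), Cd9 (0.56 ± 0.13 SE, adjusted p = 0.0099) and Itgb2 (0.42 ± 0.09 SE, adjusted p = 0.00829) were higher in Trem2KO too, and all 5 of these kept their call with the offsets. Fam107a (-0.78 ± 0.08 SE, adjusted p = 9.14e-07), Klf9 (-0.56 ± 0.11 SE, adjusted p = 0.00395), Nrn1 (-0.48 ± 0.11 SE, adjusted p = 0.00941) and Mobp (-0.35 ± 0.09 SE, adjusted p = 0.0153) were lower in Trem2KO, also with the offsets. By list, in the fit without the offsets, 5 stage 2 genes were higher in Trem2KO and 2 lower. There, 2 of 19 pan-microglial genes were higher and none lower, and of 35 lysosomal genes 13 were higher and none lower. Among the lysosomal genes, Ctsd was not called with the offsets (adjusted p = 0.266), whereas Cd68 was (adjusted p = 0.0184). The Plcg2KO group held 1 male more than Trem2KO and 1 female fewer, and the model has a term for sex.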

How the data were processed

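RNA from mouse cortex was sequenced with a KAPA mRNA kit from 100 ng of RNA, per the labels' protocols. Whole-number read counts for 24421 genes, with exon coordinates and lengths, were deposited by the authors per the file headers. A second deposited table held expected counts, TPM and FPKM, per the file headers, made with a tool not given in the sources used here. STAR 2.7.10a, featureCounts 2.0.3 and the build mm10 are named in the submitters' processing notes, with no strand setting. TPM and FPKM entered no test, and rounded expected counts served 1 alternative.

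CPM values were computed from the deposited counts with TMM scaling. The filter filterByExpr (minimum count 10) kept 16316 genes, and edgeR 4.0.16 in R 4.3.3 fitted a robust quasi-likelihood model to all 24 libraries, with a mean for each genotype and a sex term. Adjusted p-values are Benjamini-Hochberg values over all tested genes of a contrast, and called means under 0.05. Sex-specific contrasts and their difference came from a fit with a mean for each combination of genotype and sex. Trem2 was also tested on log2(CPM + 0.5) by an exact permutation test. No libraries were identical, and Pearson correlations of log2 counts within a genotype were 0.990 to 0.994.

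The comparison, the 37 gene lists (585 tested genes) and the rule for named genes were chosen with earlier results of these data known. The rule took Trem2, the 12 strongest increases and 12 strongest decreases of called genes whose average log2 CPM was 1 or more (a clone gene was counted but not described), the 3 called members of smallest p in each list, all DAM and TREM family genes, and the 5 smallest p for a sex difference. Of 117 named genes, 29 overlap another gene, so that reads can be shared. In counts simulated for this comparison (16227 genes), 37 of 67 genes given a 1.5-fold change were recovered, as were 59 of 67 at 2-fold and 66 of 66 at 4-fold, beside 6 false calls. These counts were drawn without a sex effect or a trend with GC content or length. The simulation therefore does not measure the false calls that such trends could give in the real libraries. Alternatives were RLE size factors, DESeq2 1.42.0, no filter, a filter at a mean CPM of 1, no sex term, a replicate block, each sex alone, the 12 libraries alone, GC and length offsets (GC content known for 15693 genes), expected counts, leaving out libraries with over 5% Rn45s, and leaving out each library in turn. The 12 libraries combined with the offsets were added after seeing the data. Replicate numbers did not pair the samples: deviations of same-numbered libraries correlated between -0.256 and 0.046.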

Additional observations from a re-analysis of the deposited data

Results flagged for a closer look

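Among 230 groups of 6 libraries checked for a value far from the rest, 4 stood out, where chance alone gives about 1 in 20. Zic1, a transcription factor gene of medial brain regions and meninges, was at 11.5 CPM in WT M2 against 6.84 to 8.55 CPM in the other WT libraries. Atp6v0d2 was at 0.103 CPM in Trem2KO M2 and at 0 to 0.0294 CPM in the other Trem2KO libraries. Rn45s took 9.59% of counts in WT F1 against 1.31 to 2.69% in the other WT libraries, and 0.334% in Trem2KO F1 against 2.34 to 3.50% in the other Trem2KO libraries.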

How the results depend on the processing

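No called gene among those named changed direction under any alternative run, and 91 of 102 named calls held with each of the 12 libraries left out. Of 113 named genes, 113 stayed on their side of the threshold by DESeq2, 107 of 111 with GC and length offsets, 88 in females alone and 39 in males alone. The count of called genes (2565) moved most with the samples fitted. Females alone gave 963 calls (456 lower, 507 higher, 64 higher by over 2-fold), and males alone gave 72 (58 lower, 14 higher, and past 2-fold 32 lower and 1 higher). The 12 libraries alone gave 4780 (2255 lower, 2525 higher, 47 higher by over 2-fold), and with GC and length offsets as well 4945 (2488 lower, 2457 higher). A filter at a mean CPM of 1 left 112 genes lower and 14 higher by over 2-fold. The count was 3100 by DESeq2, 3205 with the offsets alone and 1831 without libraries rich in Rn45s. Of the 2565 calls, 2563, 1994 and 1801 were shared with these, in that order. Across genes with known GC content, the rank correlation of log2 change with GC content was 0.35. With a replicate block the count of called genes was 2198, of which 2167 were shared with the unblocked fit. Numbers did not pair the samples, so no weight is put on the block. Leaving out 1 library gave 1662 to 2597 calls, 764 to 1327 higher genes and 19 to 53 higher by over 2-fold. In males the count (115) was 72 with males alone, 862 with the 12 libraries and 29 to 84 with 1 library left out. In females (1529) it was 963 with females alone, 3559 with the 12 libraries, 709 without Rn45s-rich libraries and 505 to 1845 with 1 library left out. Between Trem2KO and Plcg2KO the count (2684) was 1031 with offsets, 1073 with the replicate block, 6 in females alone, 11 in males alone and 769 to 2796 with 1 Trem2KO library left out. The cause of these movements was not tested. The sex difference gave 0 calls in every alternative run. Depth limits genes of low level, such as Atp6v0d2 with 0 to 6 reads per Trem2KO library.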

Other observations

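Some groups of genes were picked after their values were seen and are given as description only. Of 8 nuclear long noncoding RNA genes, 6 were lower in Trem2KO and 0 higher (median -0.84). Malat1, an abundant nuclear RNA, was at 740.3 to 1222 CPM (median 1077) in the WT libraries and 247 to 437 CPM (median 362) in the Trem2KO libraries, without overlap, a log2 change of -1.55 ± 0.19 (SE, adjusted p = 3.86e-06). Neat1, the scaffold of paraspeckles, changed by -1.02 ± 0.24 (SE, adjusted p = 0.00498), the imprinted Kcnq1ot1 by -1.54 ± 0.20 (SE, adjusted p = 1e-05) and Meg3 by -0.98 ± 0.14 (SE, adjusted p = 5.13e-05). Snhg11 (-0.71) and Miat (-0.48) were lower too, whereas Tug1 (-0.42 ± 0.19 SE, adjusted p = 0.136) and Rian (-0.20 ± 0.08 SE, adjusted p = 0.0735) were not called. With GC and length offsets, 7 of the 8 were called lower. These RNAs are mostly found in the nucleus.

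Of 22 tested protocadherin gamma genes, which encode cell surface proteins that give neurons distinct identities, 20 were higher in Trem2KO and 0 lower (median 0.81), and in 13 of them all Trem2KO libraries were over all WT libraries. With GC and length offsets, 20 were called higher. In females the median of the list was 1.01 and in males 0.59. Their transcripts share 3' exons, so these members are not independent measurements.

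Per library, the mean log2 level of the pan-microglial list, set against the WT mean, was -0.44 to 0.41 in WT and -1.02 to -0.55 in Trem2KO, that of the homeostatic list -0.30 to 0.23 in WT and -0.64 to -0.32 in Trem2KO and that of the DAM stage 2 list -0.44 to 0.41 in WT and -1.35 to -0.86 in Trem2KO, without overlap in any of the 3. The astrocyte list was at -0.07 to 0.07 in WT and -0.06 to 0.07 in Trem2KO, the endothelial list at -0.29 to 0.47 in WT and -0.22 to 0.29 in Trem2KO and the leukocyte list at -0.12 to 0.09 in WT and -0.06 to 0.06 in Trem2KO, with overlap in each.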
